A study of Mus musculus with 12 samples.

Results

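The levels of 10 genes known from the epidermis and other stratified epithelia were followed across 5 groups of mouse cells in a study of reprogramming of astrocytes to induced pluripotent stem cells (iPSCs). They are Tgm3, Sprr2b, Krtdap, Pkp1, Perp, Lgals7, Aldh3a1, Sfn, Krt5 and Krt14, 10 of the 19938 genes with a probe set of their own. They were selected on their log2 intensities over these same arrays, as epidermal genes at day 6 together with the basal keratins Krt5 and Krt14. Each is represented by the brightest, on average over the 12 arrays, of the probe sets that name it alone. Their levels at day 6 are therefore a description, and no test of them against day 6 cells is given.

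Day 6 cells (3 arrays) were sorted for green fluorescent protein (GFP) on day 6 after astrocytes had received retroviruses for Oct4, Klf4, Sox2 and c-Myc, and they grew in mouse embryonic stem cell medium with fetal bovine serum and leukaemia inhibitory factor (LIF). Astrocytes (3 arrays) came from mouse cortex of postnatal day 3, grew in serum and were sorted as GFP-negative before the viruses were added. Neural stem cells (2 arrays) were derived from embryonic telencephalon (day 12.5 to 14.5) and grew with basic FGF and EGF. Astrocyte iPSCs (2 arrays) and iPSCs from mouse embryonic fibroblasts (MEF iPSCs, 2 arrays, a single published line) grew on growth-arrested MEF feeders with LIF. Cells of the first 4 groups carried a GFP reporter in 1 allele of Sox1 (Sox1+/-), and MEF iPSCs carried Nanog-GFP-IRES-Puro. Culture medium, age and reporter differ along with the groups. Whether replicates came from separate animals is not stated, so errors and p-values reflect only how far these samples differ, and that spread may be technical. The day 6 cells are only the GFP-positive fraction, so a change inside the cells cannot be told apart from what the sorter picked. In bulk RNA, more cells with a transcript and more transcript per cell cannot be told apart either.

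In the epidermis, basal keratinocytes that hold keratins 5 and 14 divide, move up and build the cornified envelope, a shell of small proline-rich and other proteins cross-linked by transglutaminases. Desmosomes, made of cadherins, plakophilins and desmoplakin, join the cells to each other, and the transcription factor p63 keeps the programme running. Many envelope and S100 genes lie together in one locus, the epidermal differentiation complex.

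RNA was hybridised to Affymetrix Mouse Gene 1.0 ST arrays, and values are log2 of the deposited intensity. Array medians lay between 97.9 and 104.9 intensity units, and the number of arrays limits the precision. The labelled cell types were checked by summed intensities of fixed marker lists. The 7 pluripotency markers summed to 639 to 671 in day 6 cells, to 12154 to 14640 in astrocyte iPSCs and to 14371 to 14992 in MEF iPSCs. The 7 astrocyte markers summed to 765 to 883 in day 6 cells and to 16147 to 19885 in astrocytes. The 7 neural stem cell markers summed to 1370 to 1406 in day 6 cells and to 16545 to 17081 in neural stem cells. The astrocyte list also summed to 6226 to 6918 in neural stem cells, and the neural stem cell list to 13026 to 14966 in astrocytes. Both lists thus set astrocytes and neural stem cells apart from each other less sharply than from day 6 cells. Of the markers of fibroblasts and feeders, microglia, endothelium, and choroid plexus and ependyma, 0 of 8, 0 of 7, 1 of 5 and 0 of 5 were called higher in day 6 cells than in astrocytes (limma, adjusted p under 0.05 and a log2 change of at least 1). In the same order, 4, 1, 0 and 1 were called lower. The fibroblast and feeder markers summed to 838 to 929 in day 6 cells. In astrocytes they summed to 9383 to 10114, the highest of all groups.

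Of the 10 genes 7, Tgm3, Sprr2b, Krtdap, Pkp1, Perp, Lgals7 and Aldh3a1, had all 3 day 6 arrays above all 9 other arrays. Over all genes this held for 5.36%, and since the genes were chosen for this pattern nothing is read from their count. Sfn stood between astrocytes and the iPSC groups. Krt5 overlapped with every other group except neural stem cells. Krt14 had its highest mean at day 6, 0.45 log2 units above astrocytes, but overlapped with both iPSC groups.

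**Figure D1:**
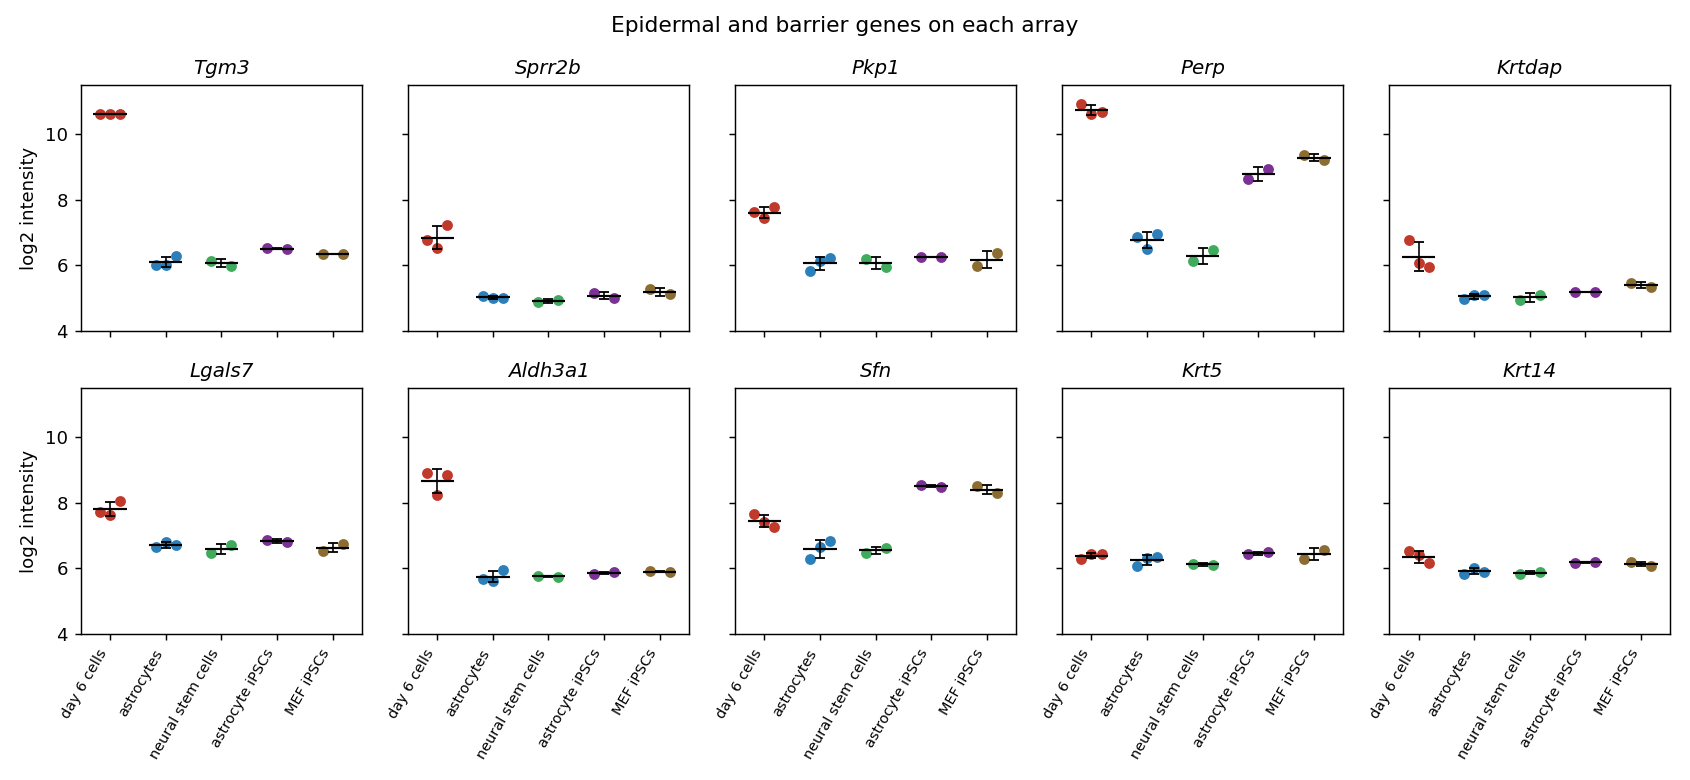
Log2 intensity (vertical axis) of the 10 genes on each of the 12 arrays, with the 5 groups along the horizontal axis; points are arrays, lines are group means and bars are 1 SD over the arrays of a group. Tgm3 and Perp stand highest in day 6 cells, with means of 10.61 and 10.73, Sfn is highest in the iPSC groups, and Krt5 lies between 6.08 and 6.56 on every array.

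Among the genes of the cornified envelope, Tgm3 encodes transglutaminase 3, an enzyme that cross-links envelope proteins in the upper epidermis and the hair follicle. Its log2 intensity was 10.61, 10.61 and 10.62 in day 6 cells, against 6.01, 6.01 and 6.29 in astrocytes, 6.15 and 5.98 in neural stem cells, 6.52 and 6.51 in astrocyte iPSCs, and 6.35 and 6.35 in MEF iPSCs. Day 6 cells were thus alone at the top, with an SD of 0.0057 over their 3 arrays and a gap of 4.09 from the lowest day 6 array to the highest other array. The difference of means from astrocytes was 4.51 ± 0.080 (limma standard error, SE), a 22.8-fold higher intensity. Below day 6 the order was astrocyte iPSCs, MEF iPSCs, astrocytes and neural stem cells, and only the arrays of the last pair overlapped.

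Sprr2b encodes a small proline-rich protein that is cross-linked into the envelope. It stood at 6.77, 6.53 and 7.24 in day 6 cells, against 5.06, 5.01 and 4.99 in astrocytes, 4.87 and 4.96 in neural stem cells, 5.15 and 5.01 in astrocyte iPSCs, and 5.27 and 5.11 in MEF iPSCs. All other arrays lay within 4.87 to 5.27 and the difference of day 6 cells from astrocytes was 1.83 ± 0.14 (SE). Genes of the Sprr2 family are close copies of each other, so probes may cross-react. A second probe set, which the annotation shares among 4 Sprr2 genes, had another pattern, with 7.46 to 7.63 in day 6 cells, at least 6.74 in astrocytes with no overlap, 6.69 to 6.93 in neural stem cells, 7.50 to 7.65 in astrocyte iPSCs and 8.27 to 8.39 in MEF iPSCs.

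Krtdap encodes a small secreted protein of differentiating keratinocytes. It stood at 6.76, 6.07 and 5.95 in day 6 cells, against 4.98, 5.09 and 5.10 in astrocytes, 4.93 and 5.11 in neural stem cells, 5.20 and 5.20 in astrocyte iPSCs, and 5.47 and 5.33 in MEF iPSCs. Replicate 1 was well above the other two day 6 arrays, which still lay above all other groups. The difference from astrocytes was 1.21 ± 0.17 (SE). Krtdap was dim even at day 6, where its mean of 6.26 lay under the array medians of 6.61 to 6.71.

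The promoters of these 3 genes are shown, since each had all its day 6 arrays above all other arrays. The letters TATAAA also lie at nearly the same distance from an annotated start in each. RefSeq windows (GRCm38.p6, 250 bases before to 50 after one annotated start) were given for 7 of the 10 genes and searched on both strands for TATAAA, the TATA box, for TGANTCA, the AP-1 motif, and for GGGTGNGG, a form of the KLF motif. Capitals mark the matches, none of which overlap, and TGANTCA reads the same on both strands and is counted once. The windows lie on the + strand, at chr2:130012090-130012389 for Tgm3, chr3:92316455-92316754 for Sprr2b and chr7:30787655-30787954 for Krtdap.
Tgm3: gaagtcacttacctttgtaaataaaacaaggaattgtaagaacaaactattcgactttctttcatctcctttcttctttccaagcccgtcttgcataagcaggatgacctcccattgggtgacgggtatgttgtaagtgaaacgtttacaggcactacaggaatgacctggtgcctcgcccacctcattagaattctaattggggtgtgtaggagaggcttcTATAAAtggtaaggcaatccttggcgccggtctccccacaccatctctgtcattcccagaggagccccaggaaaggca
Sprr2b: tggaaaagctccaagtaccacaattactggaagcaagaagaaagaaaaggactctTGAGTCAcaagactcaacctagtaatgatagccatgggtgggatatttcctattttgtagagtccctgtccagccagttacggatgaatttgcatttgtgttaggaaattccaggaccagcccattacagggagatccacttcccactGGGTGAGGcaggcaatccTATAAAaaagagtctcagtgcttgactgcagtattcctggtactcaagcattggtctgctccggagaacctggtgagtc
Krtdap: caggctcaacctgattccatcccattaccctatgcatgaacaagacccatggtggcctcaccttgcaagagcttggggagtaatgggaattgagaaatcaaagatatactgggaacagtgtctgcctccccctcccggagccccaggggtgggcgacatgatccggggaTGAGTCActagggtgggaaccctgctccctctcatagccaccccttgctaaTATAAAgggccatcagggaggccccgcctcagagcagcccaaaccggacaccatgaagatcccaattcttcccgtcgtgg

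TATAAA began 28 bases before the start of Tgm3, 29 before that of Sprr2b and 30 before that of Krtdap. It was found in 3 of the 7 windows, these 3, and in 13.6% of all 32851 windows of the same length. Both counts take a match at any place on either strand. These 3 genes were shown partly for this match, so nothing is read from their count. TGANTCA occurred in Sprr2b and Krtdap, at 195 and 81 bases before the start, and in 7.81% of all windows. GGGTGNGG occurred once, in Sprr2b, 47 bases before the start, and in 16.6% of all windows. The windows of Lgals7, Sfn, Krt5 and Krt14 held none of the 3 letter strings, although Lgals7 also had all day 6 arrays on top. No window was given for Pkp1, Perp and Aldh3a1, which share that day 6 pattern. A match describes the letters and not a bound site.

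Both desmosome genes of the set were high at day 6. Pkp1, plakophilin 1, a plaque protein of desmosomes in stratified epithelia, stood at 7.61, 7.43 and 7.79 in day 6 cells, against 5.84, 6.14 and 6.22 in astrocytes, 6.20 and 5.94 in neural stem cells, 6.25 and 6.25 in astrocyte iPSCs, and 5.99 and 6.37 in MEF iPSCs. The 4 other groups overlapped from neighbour to neighbour, and the lowest day 6 array was 1.06 above the highest of them. The difference from astrocytes was 1.54 ± 0.13 (SE).

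Perp encodes a tetraspan membrane protein of desmosomes that is a target of p53 and p63. It stood at 10.92, 10.61 and 10.68 in day 6 cells, against 6.87, 6.50 and 6.95 in astrocytes, 6.12 and 6.47 in neural stem cells, 8.62 and 8.93 in astrocyte iPSCs, and 9.35 and 9.20 in MEF iPSCs. No neighbouring groups in this order overlapped, which ran from day 6 cells through MEF iPSCs, astrocyte iPSCs and astrocytes to neural stem cells. Day 6 cells were 3.96 ± 0.14 (SE) above astrocytes, 1.96 ± 0.16 above astrocyte iPSCs and 1.46 ± 0.16 above MEF iPSCs on the log2 scale. Perp was thus high in both iPSC groups too, unlike Tgm3 and Pkp1.

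The next genes are known from stratified epithelia without being part of the envelope or the desmosome. Aldh3a1, an aldehyde dehydrogenase abundant in the corneal epithelium, stood at 8.92, 8.25 and 8.84 in day 6 cells, against 5.68, 5.63 and 5.94 in astrocytes, 5.76 and 5.75 in neural stem cells, 5.83 and 5.89 in astrocyte iPSCs, and 5.91 and 5.88 in MEF iPSCs. The 9 other arrays lay within 5.63 to 5.94, and day 6 cells were 2.93 ± 0.15 (SE) above astrocytes, a 7.60-fold higher intensity. Lgals7, galectin 7, a lectin of stratified epithelia, stood at 7.73, 7.63 and 8.05 in day 6 cells, against 6.64, 6.81 and 6.72 in astrocytes, 6.47 and 6.70 in neural stem cells, 6.88 and 6.79 in astrocyte iPSCs, and 6.53 and 6.74 in MEF iPSCs. Its difference from astrocytes was 1.08 ± 0.11 (SE), and the 4 other groups overlapped from neighbour to neighbour.

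Sfn encodes 14-3-3 sigma (stratifin), an adaptor protein of epithelia that is induced by p53. It stood at 7.65, 7.41 and 7.27 in day 6 cells, against 6.29, 6.67 and 6.84 in astrocytes, 6.48 and 6.63 in neural stem cells, 8.55 and 8.50 in astrocyte iPSCs, and 8.50 and 8.31 in MEF iPSCs. Day 6 cells lay between, 0.84 ± 0.14 (SE) above astrocytes and 1.08 ± 0.15 below astrocyte iPSCs (day 6 minus iPSCs, -1.08), with no overlap on either side. A second Sfn probe set had 7.72, 7.10 and 7.03 in day 6 cells and 6.51, 6.87 and 6.27 in astrocytes, and was also highest in the iPSC groups, between 7.97 and 8.46.

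The basal keratins had the smallest differences from astrocytes among the 10 genes. Krt5 stood at 6.29, 6.43 and 6.43 in day 6 cells, against 6.08, 6.33 and 6.34 in astrocytes, 6.15 and 6.09 in neural stem cells, 6.43 and 6.49 in astrocyte iPSCs, and 6.30 and 6.56 in MEF iPSCs. Every neighbouring pair in its order overlapped, and day 6 cells differed from astrocytes by 0.13 ± 0.089 (SE). Krt14 stood at 6.52, 6.40 and 6.15 in day 6 cells, against 5.84, 6.01 and 5.88 in astrocytes, 5.83 and 5.90 in neural stem cells, 6.17 and 6.19 in astrocyte iPSCs, and 6.18 and 6.08 in MEF iPSCs. The highest mean of Krt14 was that of day 6 cells, 6.36, followed by 6.18 in astrocyte iPSCs. Its day 6 arrays overlapped with those of both iPSC groups but not with those of astrocytes, from which they differed by 0.45 ± 0.089 (SE). Neither keratin exceeded the array median on any of the 12 arrays, while 7 of the 10 genes exceeded it on at least 2 arrays and Krtdap on 1.

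**Figure D2:**
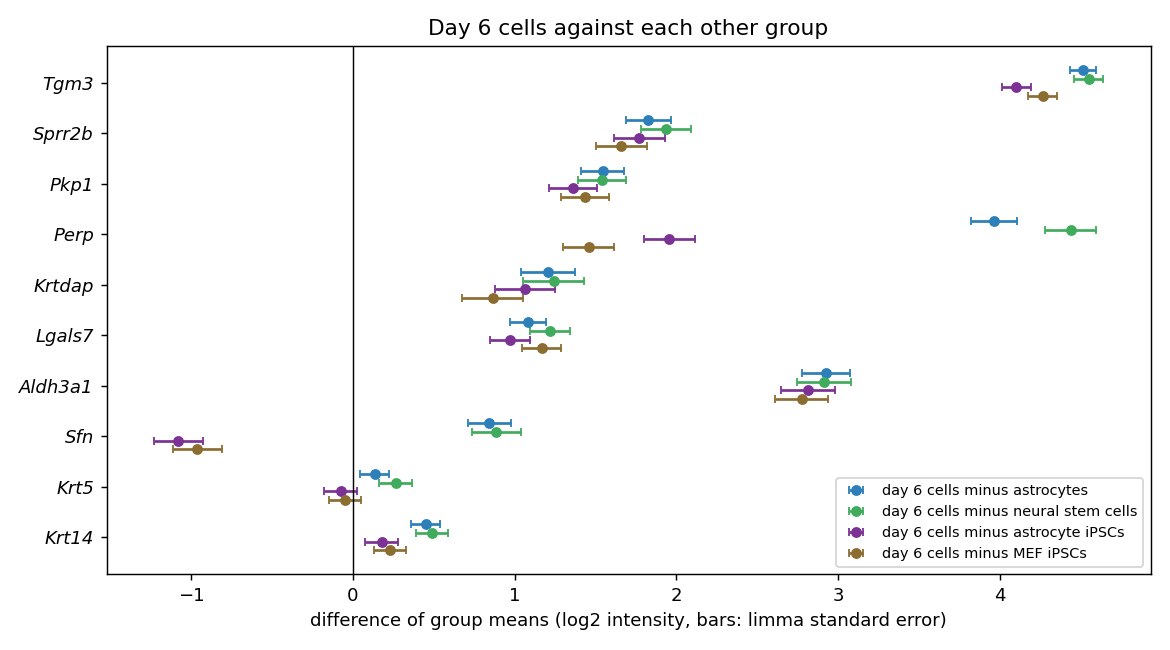
Differences of group means in log2 intensity (horizontal axis), day 6 cells minus each other group, for the 10 genes down the page; bars are limma standard errors. Tgm3 and Aldh3a1 stand to the right of 0 by about the same amount against every group, Perp by less against the iPSC groups (1.96 and 1.46), and Sfn lies left of 0 against them (-1.08 and -0.96).

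The selection read all 5 groups, so the differences among neural stem cells and iPSCs are also given as a description, with no p. Perp and Sfn were higher in both iPSC groups than in neural stem cells, by 2.48 ± 0.17 and 1.97 ± 0.17 (log2, limma SE) in astrocyte iPSCs and by 2.98 ± 0.17 and 1.85 ± 0.17 in MEF iPSCs. The other 8 genes differed by less than 0.5 in either group. Tgm3 differed by 0.45 ± 0.098 in astrocyte iPSCs and 0.28 ± 0.098 in MEF iPSCs, Krt5 by 0.34 ± 0.11 and 0.31 ± 0.11, and Krt14 by 0.31 ± 0.11 and 0.26 ± 0.11. The median difference of the 10 genes was 0.28 in both groups, where that of all genes was 0.046 in astrocyte iPSCs and 0.051 in MEF iPSCs.

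Calls in limma, fitted over all 19938 genes, needed both a log2 change of at least 1 and a p under 0.05 after Benjamini-Hochberg adjustment. By these limits 5.03% of all genes lay higher in astrocyte iPSCs than in neural stem cells, and 4.63% in MEF iPSCs. Lower were 7.51% and 7.45% (12.5% and 12.1% in either direction). Between astrocyte iPSCs and MEF iPSCs 0.742% of all genes were called (0.461% higher and 0.281% lower). No calls are given for the 10 genes here, since the selection read these groups too. Perp had the largest difference of the 10 between astrocyte iPSCs and MEF iPSCs, -0.50 ± 0.17.

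The iPSCs grew on feeders, and the 8 fibroblast and feeder markers summed to 3422 to 5951 in astrocyte iPSCs, 2782 to 2915 in MEF iPSCs and 1396 to 1802 in neural stem cells. Of these markers 6 were called higher and 1 lower in astrocyte iPSCs than in neural stem cells, and 5 higher and 1 lower in MEF iPSCs. Their part in the Perp and Sfn differences was not tested.

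Other genes of the same roles were taken from 15 lists, of which 232 of 249 entries had a probe set of their own. Against astrocytes 26 of the 232 rose in day 6 cells, 11.2%, where 6.75% of all genes rose, and 21 fell, 9.05%, where 10.1% of all genes fell (16.9% changed in either direction). Their median difference was 0.11, and that of all genes 0.042. Of 42 other measured cornified envelope precursors limma called 0 against astrocytes (7 had an unadjusted p under 0.05), and the median difference was 0.061. Against neural stem cells, astrocyte iPSCs and MEF iPSCs limma called 0 of them as well, with 7, 4 and 4 at an unadjusted p under 0.05. Many of these precursors were dim, such as Lor (5.53) and Ivl (5.56) in day 6 cells, where array medians were 6.61 to 6.71. Others were brighter, such as Evpl (7.28). For the dim ones the arrays may miss a change.

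Against astrocytes, none of the close relatives of Sprr2b and Tgm3 named next was called. Sprr1a, another small proline-rich protein, averaged 6.97 ± 0.041 (SD, n = 3) in day 6 cells and 6.37 ± 0.12 (n = 3) in astrocytes, a difference of 0.59 ± 0.074 (SE, limma adjusted p = 2.88e-05) that missed the fold limit. Sprr2d, Sprr2e, Sprr2f, Sprr2g, Sprr2h, Sprr2i and Sprr2k differed by 0.027 to 0.29 and were not called. Tgm1, the transglutaminase of the keratinocyte membrane, averaged 7.85 in day 6 cells and 7.22 in astrocytes (0.62 ± 0.10, SE), and Tgm2, the widely expressed tissue transglutaminase, averaged 7.65 and 8.38 (-0.73 ± 0.092). Neither passed the fold limit, and neither did Tgm5 and Tgm6, at 0.15 each. Against neural stem cells, Tgm1 (1.29 ± 0.11, SE, limma adjusted p = 4.47e-06) and Tgm2 (1.23 ± 0.10, limma adjusted p = 2.56e-06) rose in day 6 cells.

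In the list of cross-linking and proteolysis 4 of 20 genes rose and 1 fell, with a median of 0.15. Blmh, bleomycin hydrolase, which trims filaggrin products in the epidermis, rose by 1.12 ± 0.072 (SE, limma adjusted p = 1.08e-07). Spint1, an inhibitor of the epithelial serine protease matriptase, rose by 1.04 ± 0.14 (limma adjusted p = 4.48e-05), and Padi2, a protein deiminase, fell by 1.56 on the log2 scale (-1.56 ± 0.080, limma adjusted p = 1.65e-08). Asprv1, a retroviral-like protease of the upper epidermis, and St14, matriptase itself, were the other two called higher. Single arrays decided calls in this list: Asprv1 fell under the fold limit without astrocyte replicate 1 (0.94), day 6 replicate 1 (0.95) or day 6 replicate 2 (0.88), St14 without astrocyte replicate 3 (0.95) or day 6 replicate 1 (0.96), and Spint1 without astrocyte replicate 1 (0.96).

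Of 12 measured desmosome genes 1 rose against astrocytes and 0 fell, and the median was 0.21. It was Dsp, desmoplakin, which anchors keratins to the desmosome, at 9.29 ± 0.28 (SD, n = 3) in day 6 cells and 6.28 ± 0.30 (n = 3) in astrocytes, a difference of 3.01 ± 0.16 (SE, limma adjusted p = 1.90e-08). Pkp2 and Pkp3, the relatives of Pkp1, differed by 0.43 ± 0.13 and 0.22 ± 0.11 and were not called. Dsg2, the desmoglein of simple epithelia, differed by 0.86 ± 0.082, short of the fold limit. Dsg3, the desmoglein of basal keratinocytes, averaged 5.30 in day 6 cells and 5.17 in astrocytes. Against neural stem cells 4 of the 12 rose and 0 fell, namely Dsp by 2.93 ± 0.17, Pkp2 by 2.77 ± 0.15 (limma adjusted p = 7.17e-08), Jup, plakoglobin, by 2.71 ± 0.13 and Dsg2 by 1.10 ± 0.091. Dsg2 was called lower in day 6 cells than in astrocyte iPSCs (-2.21 ± 0.091) and MEF iPSCs (-1.55 ± 0.091).

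Keratins were for the most part not called. Of the 14 suprabasal keratins, which include Krt1 and Krt10 of differentiating keratinocytes, limma called 0 (median 0.15), and 3 had an unadjusted p under 0.05. Krt13, of non-cornified stratified epithelia, had the largest difference among them, 0.75 ± 0.066 (SE, limma adjusted p = 1.54e-06). Of the 5 simple epithelial keratins limma called 0 (median 0.26), and 3 had an unadjusted p under 0.05, with Krt8 at 0.85 ± 0.13. In the list of basal keratins and hemidesmosome 2 of 10 rose and 0 fell (median 0.16). Itgb4, the integrin of hemidesmosomes, averaged 9.16 ± 0.13 (SD, n = 3) in day 6 cells and 6.93 ± 0.12 (n = 3) in astrocytes, a difference of 2.24 ± 0.099 (SE, limma adjusted p = 5.73e-09). Krt17, a keratin of hair follicles and wounded epidermis, rose by 1.10 ± 0.11 (limma adjusted p = 3.21e-06), and by 0.97, under the fold limit, without day 6 replicate 1.

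These 2 genes were also the only ones called among the 11 keratinocyte markers other than Krt5 and Krt14. Trp63, which encodes p63, averaged 6.34 in day 6 cells and 6.26 in astrocytes (0.085 ± 0.088, SE, limma adjusted p = 0.473). Lor, Ivl, Krt1, Krt10, Krt15, Col17a1, Dsg3 and Dsc3 differed by -0.027 to 0.18. Of the 13 keratinocyte markers, 10 did not exceed the array median on 2 arrays. Their summed intensity was 1393 to 1516 in day 6 cells, 791 to 899 in astrocytes, 824 to 842 in neural stem cells, 886 to 944 in astrocyte iPSCs and 894 to 951 in MEF iPSCs. These sums include Itgb4, with means of 9.16 in day 6 cells and 6.93 in astrocytes, and Krt17, with 7.09 and 5.99. They therefore do not stand for a rise of all 13 markers. Whether a few cells of another kind add to the day 6 values was not tested.

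Of 25 epidermal transcription factors 5 rose and 2 fell (median 0.23). Ehf, an ETS factor of epithelia, averaged 7.68 ± 0.45 (SD, n = 3) in day 6 cells and 5.49 ± 0.12 (n = 3) in astrocytes and rose by 2.18 ± 0.18 (SE, limma adjusted p = 7.01e-07). Tfap2c, an AP-2 factor of the surface ectoderm and trophoblast, rose by 1.51 ± 0.15 (limma adjusted p = 3.64e-06). Tfap2a, Klf5 and Zfp750 were the other three called higher, and Klf5 fell under the fold limit without day 6 replicate 1 (0.99). Vdr, the vitamin D receptor, fell by 1.72 on the log2 scale (-1.72 ± 0.074, limma adjusted p = 4.89e-09).

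S100 genes, calcium-binding proteins of which many lie in the epidermal differentiation complex, moved both ways, 4 of 13 higher and 3 lower (median 0.036). S100a6 rose by 1.35 ± 0.20 (SE, limma adjusted p = 0.000119), while S100a1 and S100a13 fell by 3.05 ± 0.15 (-3.05) and 1.52 ± 0.11 (-1.52). Epithelial adhesion and splicing genes rose in 6 of 9 with 0 lower (median 1.43), the highest share of the 15 lists. Epcam, an adhesion molecule, rose by 3.04 ± 0.068 (limma adjusted p = 4.03e-11), Esrp1, an epithelial splicing factor, by 2.45 ± 0.12, and Cdh1, E-cadherin, by 2.41 ± 0.10. Tight junction genes had 1 of 13 higher, F11r, the junctional adhesion molecule A (1.23 ± 0.13), and 1 lower, Tjp1, a scaffold protein (-1.07 ± 0.080), with a median of 0.24. Barrier lipid genes had 1 of 19 higher, Cyp4f39, a fatty acid hydroxylase of the epidermis (1.16 ± 0.10), and 1 lower, Smpd1, acid sphingomyelinase (-2.87 ± 0.062), with a median of 0.14.

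**Figure D3:**
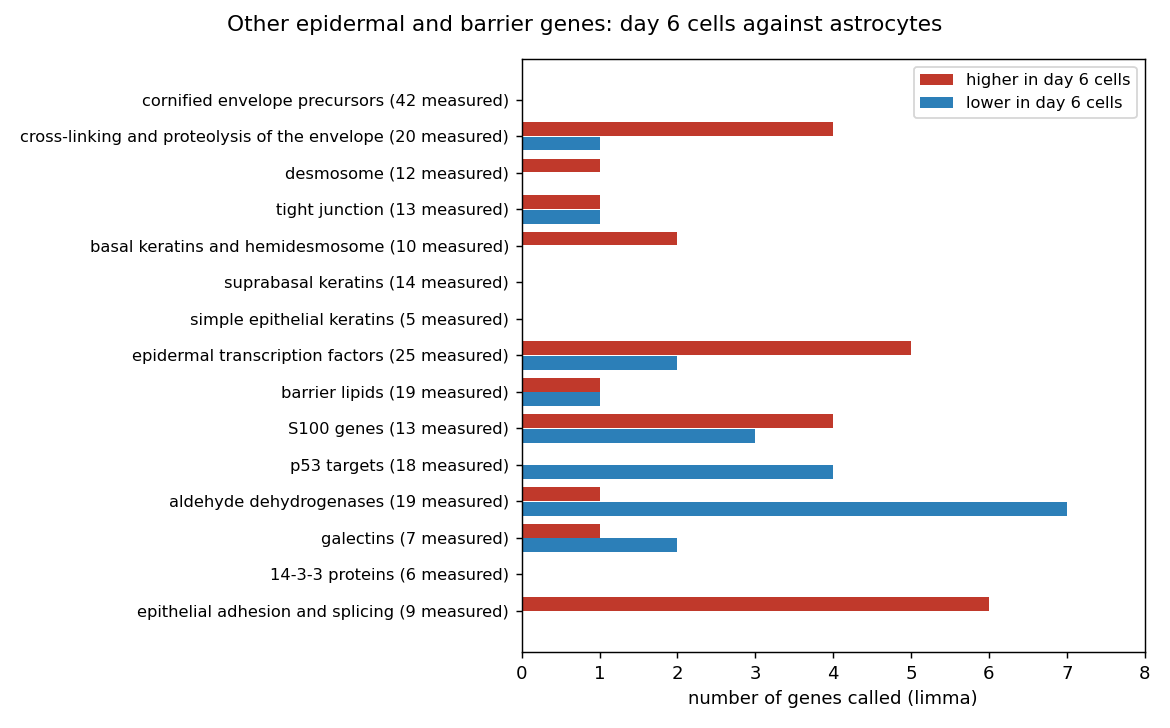
Number of genes called by limma in day 6 cells against astrocytes (horizontal axis) in each of 15 lists that leave out the 10 genes, red for higher and blue for lower in day 6 cells; the measured list size stands in brackets. Epithelial adhesion and splicing genes have 6 higher and 0 lower, aldehyde dehydrogenases 1 higher and 7 lower, and cornified envelope precursors 0 each way.

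The gene families of Aldh3a1, Lgals7 and Sfn were read in the same way. Among 19 other aldehyde dehydrogenases 1 rose and 7 fell (median -0.72). Aldh1l1, a folate enzyme of astrocytes, fell by 4.04 on the log2 scale (-4.04 ± 0.096, SE, limma adjusted p = 5.54e-11), and Aldh1a1 and Aldh6a1 fell by 3.04 ± 0.14 (-3.04) and 2.98 ± 0.11 (-2.98). Of the other members of family 3, Aldh3a2 and Aldh3b1 fell by 1.71 ± 0.074 (-1.71) and 1.86 ± 0.12 (-1.86), and Aldh3b2 differed by 0.042 ± 0.086 (limma adjusted p = 0.729), with a mean of 6.66 in day 6 cells and 6.61 in astrocytes.

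Of 7 other galectins 1 rose, Lgals3 (1.09 ± 0.15, SE, and 0.9996 without astrocyte replicate 3), and 2 fell, Lgals8 (-1.52 ± 0.067) and Lgals1 (-1.41 ± 0.14), with a median of -0.31. Of the 6 other 14-3-3 genes limma called 0 (median -0.21), and 5 had an unadjusted p under 0.05. Among 18 p53 targets, to which Perp and Sfn are usually counted, 0 rose against astrocytes and 4 fell (median -0.044). Those that fell include the death receptor gene Fas (-1.87 ± 0.17), Btg2 (-1.81 ± 0.15) and Sesn1 (-1.73 ± 0.11). In either direction, 12 of the 18 had an unadjusted p under 0.05 in limma, these 4 included. For Fas the direction turned with the group compared, since it rose in day 6 cells against neural stem cells (1.43 ± 0.19, SE, limma adjusted p = 8.58e-05) and MEF iPSCs (1.38 ± 0.19, limma adjusted p = 0.000163). Against neural stem cells 2 of the 18 rose, Fas and Phlda3 (1.02 ± 0.14), and 1 fell. Phlda3 was at 0.95 without day 6 replicate 1 and 0.99 without day 6 replicate 2, under the fold limit.

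Against the other groups the same 232 genes gave other balances. Against neural stem cells 36 rose in day 6 cells and 4 fell, where 2.94% and 5.94% of all genes did (8.88% in either direction). Against astrocyte iPSCs 7 were higher and 27 lower in day 6 cells (2.82% and 3.29% of all genes, 6.11% in either direction), and against MEF iPSCs 11 were higher and 25 lower (2.93% and 3.18%, 6.11% in either direction). The number higher against astrocyte iPSCs was 11 without astrocyte iPSC replicate 2. These comparisons share the day 6 arrays.

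Of the 232 genes 5 were called higher in day 6 cells than in each of the 4 other groups, where 0.542% of all genes were. They are Itgb4, Ehf, Tfap2a, S100a3 and S100a6. Ehf averaged 7.68 in day 6 cells, against 5.49 in astrocytes, 5.43 in neural stem cells, 5.58 in astrocyte iPSCs and 5.49 in MEF iPSCs. S100a3, an S100 protein of the hair cuticle, averaged 7.10 in day 6 cells, against 5.86 in astrocytes, 5.56 in neural stem cells, 5.79 in astrocyte iPSCs and 5.83 in MEF iPSCs. Of the 26 list genes that rose against astrocytes, these 5 (19.2%) were also called higher than in both iPSC groups, where 10.6% of the 1346 genes that rose were. Another 6 of the 26 (23.1%) were called lower than in both iPSC groups, where 3.12% of the 1346 genes were. They are Cdh1, Esrp1, St14, F11r, Spint1 and Lsr, and Lsr missed the fold limit against astrocytes without astrocyte replicate 1 (0.97) or day 6 replicate 2 (0.99). Spint1 missed it against astrocyte iPSCs without astrocyte iPSC replicate 1 (-0.94). Cdh1 averaged 8.79 in day 6 cells, against 6.38 in astrocytes, 10.76 in astrocyte iPSCs and 10.78 in MEF iPSCs. Epcam, Tfap2c and Klf5 were each called lower than in 1 of the 2 iPSC groups, and Tfap2c lost that call without day 6 replicate 2 (-0.95), day 6 replicate 3 (-0.99) or astrocyte iPSC replicate 2 (-0.97). Dsp had its highest mean at day 6, 9.29, against 8.34 in astrocyte iPSCs and 8.19 in MEF iPSCs, and of the 2 iPSC groups it was called higher only against MEF iPSCs (1.10 ± 0.17, SE, limma adjusted p = 0.000541), although without day 6 replicate 3 it was called against astrocyte iPSCs too (1.11).

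**Figure D4:**
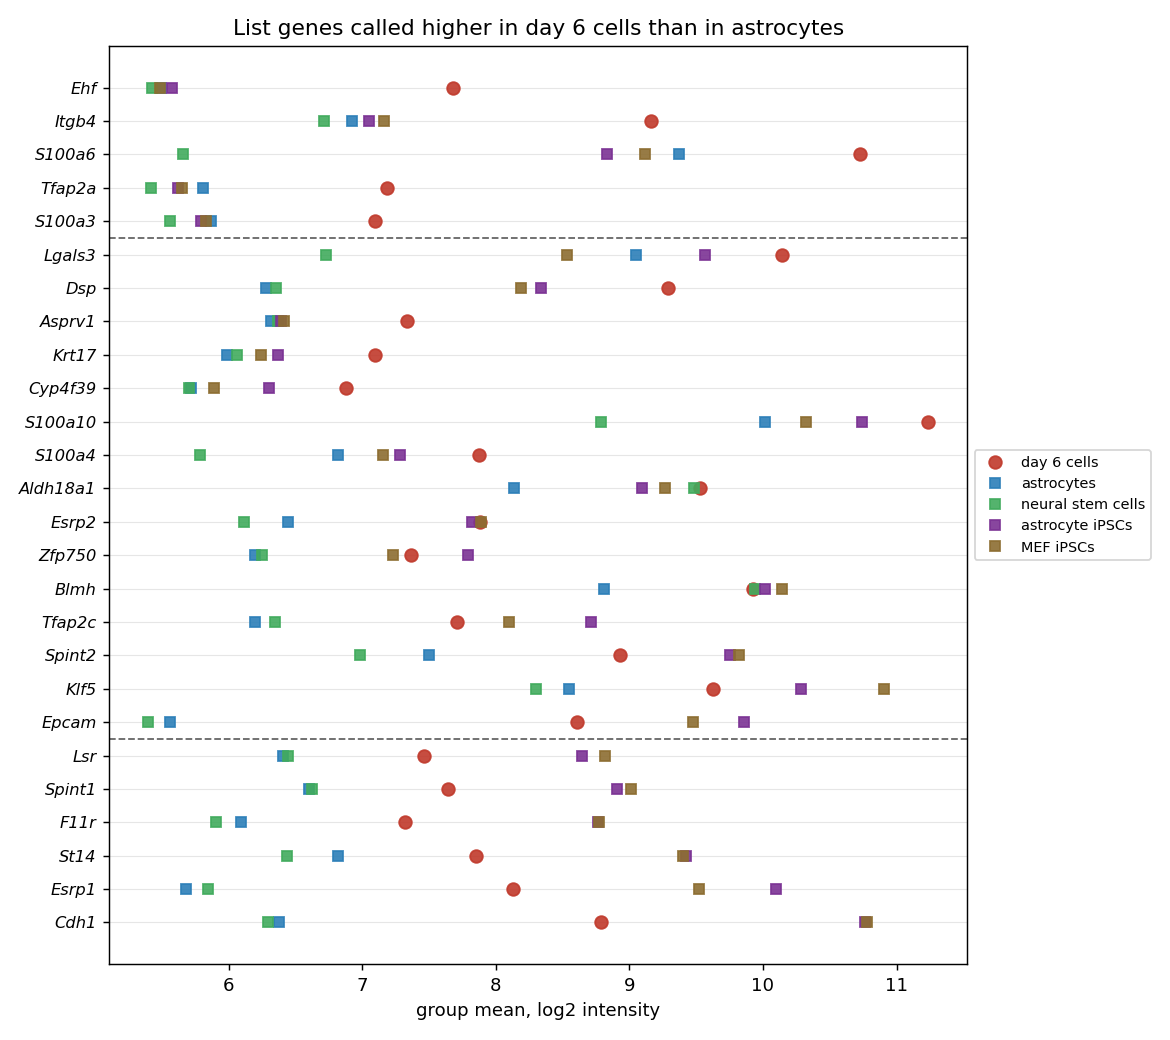
Group means in log2 intensity (horizontal axis) of the 26 list genes called higher in day 6 cells (red circles) than in astrocytes, with the other groups as squares. Dashed lines set apart 5 genes at the top that were also called higher than in both iPSC groups, such as Ehf, and 6 at the bottom that were called lower than in both, such as Cdh1.

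For each of the 8 genes whose group means spanned at least 1 log2 unit, the 3 genes with the most similar profile were taken, by the root mean square difference over the 12 arrays after each gene was centred. This is a description, since arrays of one group share their cells and culture. Gpr50, an orphan receptor, was nearest to Tgm3 with a difference of 0.36 log2 units, and averaged 9.80 in day 6 cells and 5.57 in astrocytes. Akr1c18 (0.40) and Mal (0.42) followed. Adh7, an alcohol dehydrogenase of epithelia, was nearest to Sprr2b (0.15) and second nearest to Pkp1 (0.17), whose nearest gene was Lgr6, a receptor of hair follicle stem cells (0.12).

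Mpzl2, a junctional adhesion protein, was nearest to Perp (0.36), with means of 10.65 in day 6 cells, 6.43 in astrocytes, 8.91 in astrocyte iPSCs and 9.40 in MEF iPSCs. Krtdap was nearest to Fam110c (0.13) and Krt17 was also among its 3 nearest (0.16). Loxl4 was nearest to Lgals7 (0.14) and Sbspon to Aldh3a1 (0.21). The genes nearest to Sfn were Foxi3, a forkhead factor of the ectoderm (0.18), and Grhl3, a factor of epidermal differentiation (0.19), which averaged 7.17 in day 6 cells, 6.62 in astrocytes, 8.24 in astrocyte iPSCs and 8.55 in MEF iPSCs.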

How the data were processed

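The authors deposited one intensity per probe set and array on a linear scale, made with RMA per the submitters' processing notes; its version and settings are not given in the sources used here. RMA summarises and normalises probes between arrays and compresses the differences of dim genes. Of 28853 probe sets, 21789 name 1 gene symbol, 1621 several and 5443 none in the platform annotation, and only the first kind was used, with the highest mean kept for genes with several, leaving 19938 genes. Intensities were turned to log2 with no pseudocount and fitted with limma 3.58.1 (R 4.3.3), 1 mean per group over all 12 arrays, with Benjamini-Hochberg adjustment over all genes. Calls needed an adjusted p under 0.05 and a log2 change of at least 1. The fit was tested on simulated data. The members and lists were chosen with earlier results of these data known, so a list count is a description. In place of the tests planned for the 10 genes among neural stem cells and iPSCs, only differences with their SE are given. Named list genes were up to 3 per list with the largest called change, every called desmosome and keratin gene, markers, paralogs and the most similar genes. Asprv1, St14, Tfap2a, Klf5, Zfp750, S100a3, Krt13, Krt8, Dsg2, Jup, Phlda3 and the genes named by their place against the iPSC groups were chosen after their values were seen. Alternatives were cyclic loess, median centring, a filter on dim genes, the mean of probe sets, 16 subtracted before log2, other eBayes settings, only the arrays compared, no fold limit, a replicate block, and each array left out.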

Additional observations from a re-analysis of the deposited data

Results flagged for a closer look

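Lgals3, the galectin that rose at day 6, differed between the iPSC groups, which also differ in cell of origin and reporter. It averaged 9.57 in astrocyte iPSCs and 8.54 in MEF iPSCs, with 9.05 in astrocytes, and the difference of the iPSC groups was 1.03 ± 0.18 on the log2 scale (SE, limma adjusted p = 0.00638, n = 2 each). The 8 fibroblast and feeder markers summed to 3422 to 5951 in astrocyte iPSCs and 2782 to 2915 in MEF iPSCs, and 1 of them was called higher in astrocyte iPSCs and 0 lower. Their part in the Lgals3 difference was not tested.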

How the results depend on the processing

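The alternatives were run for the 10 genes in day 6 cells against astrocytes and among neural stem cells and iPSCs. For 67 named list genes and markers they were run in the 4 day 6 comparisons. No called difference changed sign. Differences of the 10 genes between day 6 cells and neural stem cells or iPSCs were not run, nor were the most similar genes. Without the fold limit, day 6 cells had 74 of the 232 list genes higher and 41 lower against astrocytes. The counts were 101 and 13 against neural stem cells, 39 and 52 against astrocyte iPSCs, and 41 and 45 against MEF iPSCs. Higher than in each other group were 16 list genes. With 16 subtracted before log2, 11 list genes were higher against astrocyte iPSCs. The differences from astrocytes grew to 4.88 for Tgm3, 2.58 for Sprr2b, 1.82 for Pkp1, 4.18 for Perp, 1.80 for Krtdap and 3.38 for Aldh3a1. With arrays left out in turn, 7 to 8 of the 10 genes had all day 6 arrays on top. The added gene was Krt14, without day 6 replicate 3. Its remaining day 6 arrays (6.52 and 6.40) lay above the highest other array (6.19). The list counts then were 21 to 27 higher and 21 lower against astrocytes, 34 to 36 and 4 against neural stem cells, 6 to 11 and 24 to 27 against astrocyte iPSCs, 11 to 13 and 24 to 25 against MEF iPSCs, and 5 to 7 higher than in each other group. The 11 keratinocyte markers gave 1 to 2 higher, with 1 without day 6 replicate 1. Against astrocytes, Blmh (0.94), Klf5 (0.92) and Lgals3 (0.98) under cyclic loess, Tjp1 (-0.97) under median centring, Spint1 (0.96) without astrocyte replicate 1 and Lgals3 (0.9996) without astrocyte replicate 3 were among the genes that fell short of the fold limit, and the cause was not tested. Median centring moved the median of all genes against astrocytes to 0.14, where it was 0.042. Same-numbered arrays were not taken as pairs, since the labels tie the numbers to no shared source. Even so, 11 of 21 such pairs had a correlation of deviations over 0.1, and whether they share a source was not tested. The 21 values are not separate, since both pairs between groups of 2 arrays give the same value. The correlations ran between -0.097 and 0.41, and 4 of 6 day 6 and astrocyte arrays correlated best with their own number. With the replicate number as a block, 9 list genes were higher and 26 lower against astrocyte iPSCs, and the other counts of calls equalled those without the block. As single calls, Spint1 against neural stem cells (0.97) and Tfap2c against astrocyte iPSCs (-0.90) fell under the fold limit with the block, and Fas (1.07) and Asprv1 (1.02) against astrocyte iPSCs and Asprv1 against neural stem cells (1.04) passed it. Dim genes such as Krtdap, Krt5 and Krt14 limit what these arrays can resolve.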
